A study of Mus musculus with 78 samples.

Results

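The choroid plexus is the secretory tissue of the brain ventricles, and 10 genes known for it (Ttr, Kl, Folr1, Clic6, Kcnj13, Otx2, Aqp1, Slc4a5, Prlr and Sostdc1) were followed here, of 55367 gene symbols counted. They form a list of names with no threshold on measured values, drawn up with earlier results of these data known, and all 10 are in the count tables of both sexes. No library was labelled as plexus. The genes were used as a marker of plexus RNA in dissected tissue: which regions and mice carried them, how closely they moved together, and whether KO and WT libraries differed.

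Choroid plexus epithelium is a single layer of ciliated cells around a core of vessels and stroma. It makes cerebrospinal fluid by moving ions and water from blood to ventricle, and it secretes carrier proteins into that fluid. The lateral ventricles run along the striatum and the hippocampus, so plexus fronds can be picked up when those regions are cut out. In the GENCODE annotation of GRCm38 all 10 are protein-coding genes. The carrier and receptors lie at chr18:20665280-20674321 (Ttr), chr5:150952607-150993817 (Kl), chr7:101858331-101870788 (Folr1) and chr15:10177238-10349180 (Prlr). The channels and transporters lie at chr16:92485736-92541243 (Clic6), chr1:87386363-87394729 (Kcnj13), chr6:55336432-55348555 (Aqp1) and chr6:83219828-83304945 (Slc4a5). The regulators lie at chr14:48657677-48673819 (Otx2) and chr12:36314139-36318452 (Sostdc1).

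The 78 libraries were poly(A) RNA from 7 regions of 12 adult C57BL6/J mice, 3 per sex and genotype. KO mice carried a constitutive Acss2 deletion spanning exons 3 to 7, made with CRISPR/Cas9 and backcrossed for 3 generations; WT mice did not carry it. Acss2 encodes an enzyme that turns acetate into acetyl-CoA. All mice, WT included, had drunk 15% ethanol in the dark phase, with water beside it in the earlier sessions and without it in the later ones, so no library came from a mouse without ethanol. The males were KO mice 1, 2 and 10 and WT mice 3, 12 and 13. The females were KO mice 4, 5 and 6 and WT mice 11, 23 and 24. A region held 3 libraries per sex and genotype except female WT amygdala, cortex and prefrontal cortex and male WT prefrontal cortex (2 each) and male KO prefrontal cortex (1). Levels are given as CPM, a gene's counts scaled to the total of its library.

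Depth differed between 2 sets of regions. Dorsal hippocampus, amygdala, ventral striatum and dorsal striatum (the deeper set, 47 libraries) had totals of 4454420 to 14487778 counts, where 3 counts correspond to 0.207 to 0.673 CPM. Ventral hippocampus, cortex and prefrontal cortex (the shallower set, 31 libraries) had 629635 to 1228828 counts, where 3 counts correspond to 2.44 to 4.76 CPM. Acss2 separated the genotypes, at 0.971 to 13.96 CPM in 40 KO libraries and 35.9 to 73.8 CPM in 38 WT libraries. WT mouse 23, labelled female, had a prefrontal cortex library with no Xist count and Ddx3y at 73.4 CPM, against its label. In 9 of 67 libraries a list of 8 neuron markers of another region summed to more than that of the labelled region (the amygdala has no list of its own and was not checked). The dorsal hippocampus library of female WT mouse 23 was one of these, with thalamic markers at 1219 and hippocampal markers at 460 CPM, and the dorsal striatum library of the same mouse had cortical markers at 1354 and striatal markers at 248 CPM. Several of the main results that these 9 libraries enter are also given without them, but the interactions of sex and genotype are not.

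Ttr (transthyretin, a secreted carrier of thyroxine and of retinol-binding protein) was high in a small number of libraries. It ranged from 0 to 8637 CPM over the 78 libraries with a median of 12.3 CPM, and 5 libraries had no count. In 10 libraries it reached 500 CPM. These were amygdala of female KO mice 5 and 4, at 8637 and 5234 CPM. In dorsal striatum they were female KO mice 6 and 5 at 6231 and 5143 CPM, male WT mouse 13 at 2618 CPM and female WT mouse 24 at 765 CPM. In dorsal hippocampus they were female WT mouse 23 at 4518 CPM, male WT mouse 3 at 1192 CPM and male KO mouse 1 at 959.8 CPM. The last was the cortex of female KO mouse 4, at 1092 CPM. The next library below this step was the amygdala of female WT mouse 24, at 452 CPM. No ventral striatum, ventral hippocampus or prefrontal cortex library came near it, since the highest there were 77.3, 75.8 and 64.6 CPM. A high value in a region of a mouse was not shared by all of its regions. For example, female KO mouse 6 had 6231 CPM in dorsal striatum and 1.59 CPM in ventral striatum, and female WT mouse 23 had 4518 CPM in dorsal hippocampus and 0.171 CPM in dorsal striatum.

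**Figure D1:**
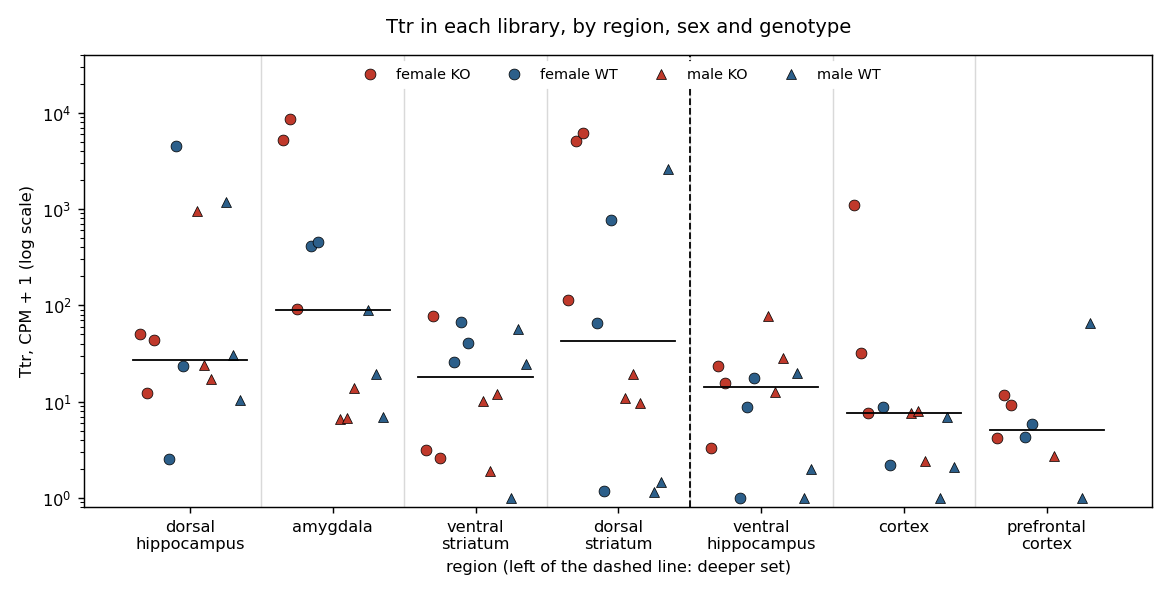
Ttr in each of the 78 libraries, as CPM + 1 on a log axis, by region; circles are females, triangles males, red KO and blue WT, and the horizontal line is the median of the region. The points above 500 CPM lie in amygdala, dorsal striatum, dorsal hippocampus and cortex, and none lies in ventral striatum, ventral hippocampus or prefrontal cortex, where the highest is 77.3 CPM.

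By region, median Ttr was 89.2 CPM in amygdala (n = 11), 41.5 in dorsal striatum (n = 12), 26.1 in dorsal hippocampus (n = 12), 17.2 in ventral striatum (n = 12), 13.1 in ventral hippocampus (n = 12), 6.60 in cortex (n = 11) and 4.08 in prefrontal cortex (n = 8). The highest library was 173 times the median in dorsal hippocampus, 150 times in dorsal striatum, 96.8 times in amygdala and 165 times in cortex. In ventral striatum it was 4.49 times the median and in ventral hippocampus 5.80 times. In bulk tissue, fewer plexus cells and less RNA per cell cannot be told apart.

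The other 9 genes were high in the same libraries. Of the 10 genes, all passed 3 counts in 13 libraries, every one in the deeper set, and none passed in 3 cortex libraries. Summed over the 10 genes, the share of a library's counts had a median of 0.0048% and reached 0.929% in the amygdala of female KO mouse 5. Without Ttr the other 9 summed to 651 CPM in that library and to 2.40 CPM in the dorsal striatum of female WT mouse 23, the lowest of the deeper set. Per kilobase of annotated exon, in the 5 libraries with most Ttr, the level of Ttr was 3809 to 7283 CPM and the levels of the other 9 genes lay between 2.11 and 52.2 CPM.

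**Figure D2:**
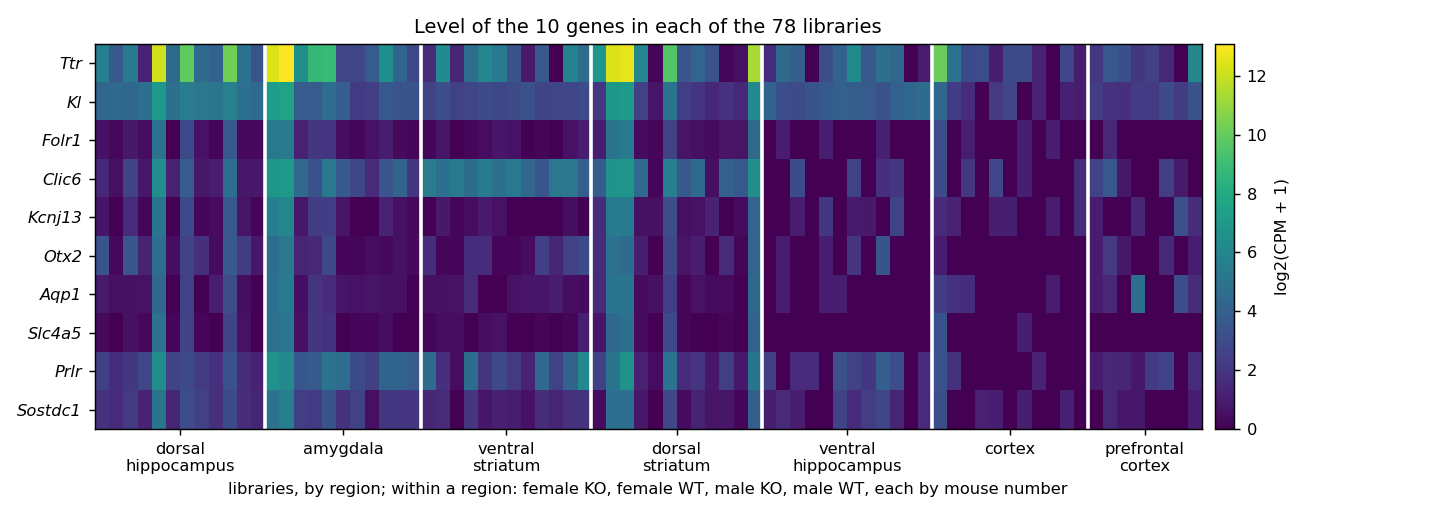
The level of each of the 10 genes (rows) in each of the 78 libraries (columns, by region, then sex and genotype), as log2(CPM + 1). The bright columns, such as amygdala of female KO mice 4 and 5 at 5234 and 8637 CPM of Ttr, are bright in all 10 rows. Kl is also present, at differing levels, in all hippocampal libraries, and Clic6 in all ventral striatum libraries.

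Of the channels and transporters, Kcnj13 and Slc4a5 were low in most libraries without high Ttr. Kcnj13 (the inward rectifier potassium channel Kir7.1 of the apical membrane) was at 31.9 to 66.3 CPM in the 5 libraries with most Ttr, and at most 2.26 CPM in the deeper-set libraries with Ttr below 400 CPM. In the shallower set Kcnj13 was highest, at 8.49 CPM, in the prefrontal cortex of male WT mouse 3, where Ttr had no count. Slc4a5 (a sodium bicarbonate cotransporter) was at 34.2 CPM in amygdala of female KO mouse 5 and had no count in 43 of 78 libraries. In the shallower set the cortex of female KO mouse 4 had 8.87 CPM of Slc4a5 and no other library had more than 1.16 CPM. Aqp1 (the water channel of the apical membrane) reached 41.6 CPM in amygdala of female KO mouse 5 and 33.1 CPM in dorsal striatum of female KO mouse 6. Aqp1 was also at 26.1 CPM in the prefrontal cortex of female WT mouse 11, where Ttr was 3.27 CPM, so a high Aqp1 value did not always come with Ttr. Clic6 (of the chloride intracellular channel family) was at 134 CPM in amygdala of female KO mouse 5, but it was also at 10.4 to 43.97 CPM in all 12 ventral striatum libraries, where Ttr was 0 to 77.3 CPM.

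Of the receptors, Kl was also present in libraries with little Ttr. Kl (alpha-klotho, a co-receptor for FGF23) was at 184.5 CPM in amygdala of female KO mouse 5 and 138 CPM in dorsal striatum of female KO mouse 6. In dorsal hippocampus its lowest library was at 19.5 CPM and its median at 27.4 CPM, including libraries with Ttr under 12 CPM. In ventral hippocampus Kl was at 7.27 to 23.8 CPM, with 20.6 CPM in male WT mouse 12, where Ttr had no count. Folr1 (the folate receptor that carries folate into cerebrospinal fluid) had its highest value, 39.8 CPM, in dorsal striatum of female KO mouse 6 and its median over all libraries was 0.318 CPM. Prlr (the prolactin receptor) was highest in amygdala of female KO mouse 4, at 103 CPM, and in dorsal striatum of female KO mouse 6, at 101 CPM. Prlr was at 75.4 CPM in the ventral striatum of male WT mouse 13 with Ttr at 23.4 CPM; that library is one of the 9 whose neuron markers go against the label, with thalamic markers at 1171 and striatal markers at 373 CPM.

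Of the regulators, Otx2 (a homeodomain transcription factor needed for plexus development) reached 35.3 CPM in amygdala of female KO mouse 5, and in dorsal hippocampus it was at 9.26 and 10.2 CPM in female KO mice 4 and 6, where Ttr was 49.5 and 42.5 CPM. In the cortex of female KO mouse 4, where Ttr was 1092 CPM, Otx2 was at 0.986 CPM, so Otx2 and Ttr were not always high together. Sostdc1 (a secreted antagonist of BMP signals) reached 48.1 CPM in amygdala of female KO mouse 5. Its median over all libraries was 1.56 CPM, and 15 libraries had no count.

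Promoter sequence is shown for Kcnj13 and Kl, because in the deeper set Kcnj13 was low outside the Ttr-rich libraries and Kl was not. The RefSeq table on GRCm38.p6 held windows for 6 of the 10 genes (Kl, Kcnj13, Otx2, Aqp1, Slc4a5 and Prlr). Each sequence below is the 250 bases before the annotated start, 5′ to 3′ on the gene's strand, with CG pairs in capitals. The Kcnj13 window is chr1:87394730-87394979 on the minus strand and the Kl window is chr5:150952357-150952606 on the plus strand, and neither overlaps an annotated exon.
Kcnj13: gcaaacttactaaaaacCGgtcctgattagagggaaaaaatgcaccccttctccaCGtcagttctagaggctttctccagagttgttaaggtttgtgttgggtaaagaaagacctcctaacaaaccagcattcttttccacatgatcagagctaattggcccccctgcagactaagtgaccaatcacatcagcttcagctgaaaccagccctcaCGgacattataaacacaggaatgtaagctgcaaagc
Kl: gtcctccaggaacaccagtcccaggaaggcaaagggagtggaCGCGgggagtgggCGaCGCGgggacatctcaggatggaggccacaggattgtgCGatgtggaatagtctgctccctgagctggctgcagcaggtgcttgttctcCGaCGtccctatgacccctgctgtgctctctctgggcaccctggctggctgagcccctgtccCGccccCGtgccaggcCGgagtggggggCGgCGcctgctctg
The Kcnj13 window held 3 CG pairs and 45.2% G and C bases. The Kl window held 13 CG pairs and 66.8%, against medians of 6 pairs and 52.4% over 32851 promoter windows of this length. The letters TAATCC, a core bound by OTX-type homeodomains, or their reverse complement GGATTA, were found in 1 of the 11 windows of the 6 genes. That window belongs to an internal Otx2 start and lies wholly in annotated Otx2 exons. Over all windows, 2054 of 32851 (6.25%) held these letters, so the genes' share, 9.09%, is a matter of 1 window. These matches are a description of letters only.

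The proportions of the genes to each other were measured against Ttr within each library. In the 5 libraries with most Ttr, Kl was at 21.4 to 29.3 counts per 1000 Ttr counts, Clic6 at 15.6 to 23.4, Kcnj13 at 6.56 to 9.29 and Folr1 at 4.34 to 7.05. Otx2 was at 3.62 to 5.69, Aqp1 at 4.15 to 6.09, Slc4a5 at 3.96 to 6.59 and Sostdc1 at 4.08 to 7.17. For these 8 genes the highest ratio was 1.37 to 1.76 times the lowest, over 3 regions and 4 mice, all female. One of the 5 is the dorsal hippocampus library of mouse 23, whose neuron markers go against the label. It is the only WT and the only hippocampal library among them. The other 4 are amygdala and dorsal striatum libraries of female KO mice 4, 5 and 6, and there the highest ratio was 1.27 to 1.62 times the lowest. Prlr was the exception, at 6.30 to 19.8 counts per 1000 Ttr counts, a 3.14-fold range. Over the 10 libraries with most Ttr the range was wider for all 9 genes, at 1.92-fold for Sostdc1, 2.04-fold for Folr1, 2.15-fold for Aqp1, 2.19-fold for Slc4a5 and 2.62-fold for Kl. It was 5.54-fold for Kcnj13, 6.24-fold for Prlr, 9.90-fold for Clic6 and 10.9-fold for Otx2, and these 9 ranges were the same without the library of mouse 23. The 10 libraries include the cortex of female KO mouse 4, where Kcnj13 and Otx2 had 1.81 and 0.903 counts per 1000 Ttr counts, the lowest ratios of these genes.

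Across libraries the genes rose and fell together in the deeper set. After each region's mean was subtracted on the log2(CPM + 1) scale, Pearson r with Ttr over 47 libraries was 0.91 for Kcnj13, 0.90 for Folr1, 0.89 for Slc4a5, 0.85 for Sostdc1, 0.84 for Kl and Aqp1, 0.81 for Otx2, 0.79 for Clic6 and 0.71 for Prlr. The median of the 9 was 0.84, and the median over 14755 genes with a mean of at least 1 CPM was 0.08. Ranked by r among those genes, Kcnj13 was at 2, Folr1 at 5, Slc4a5 at 6, Sostdc1 at 15, Kl at 17, Aqp1 at 18, Otx2 at 30, Clic6 at 41 and Prlr at 97. The 45 pairs of the 10 genes had a median r of 0.85, from 0.68 for Clic6 with Prlr to 0.98 for Folr1 with Slc4a5. These libraries share mice and depth, and their values are compositional, so r is given as a description.

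**Figure D3:**
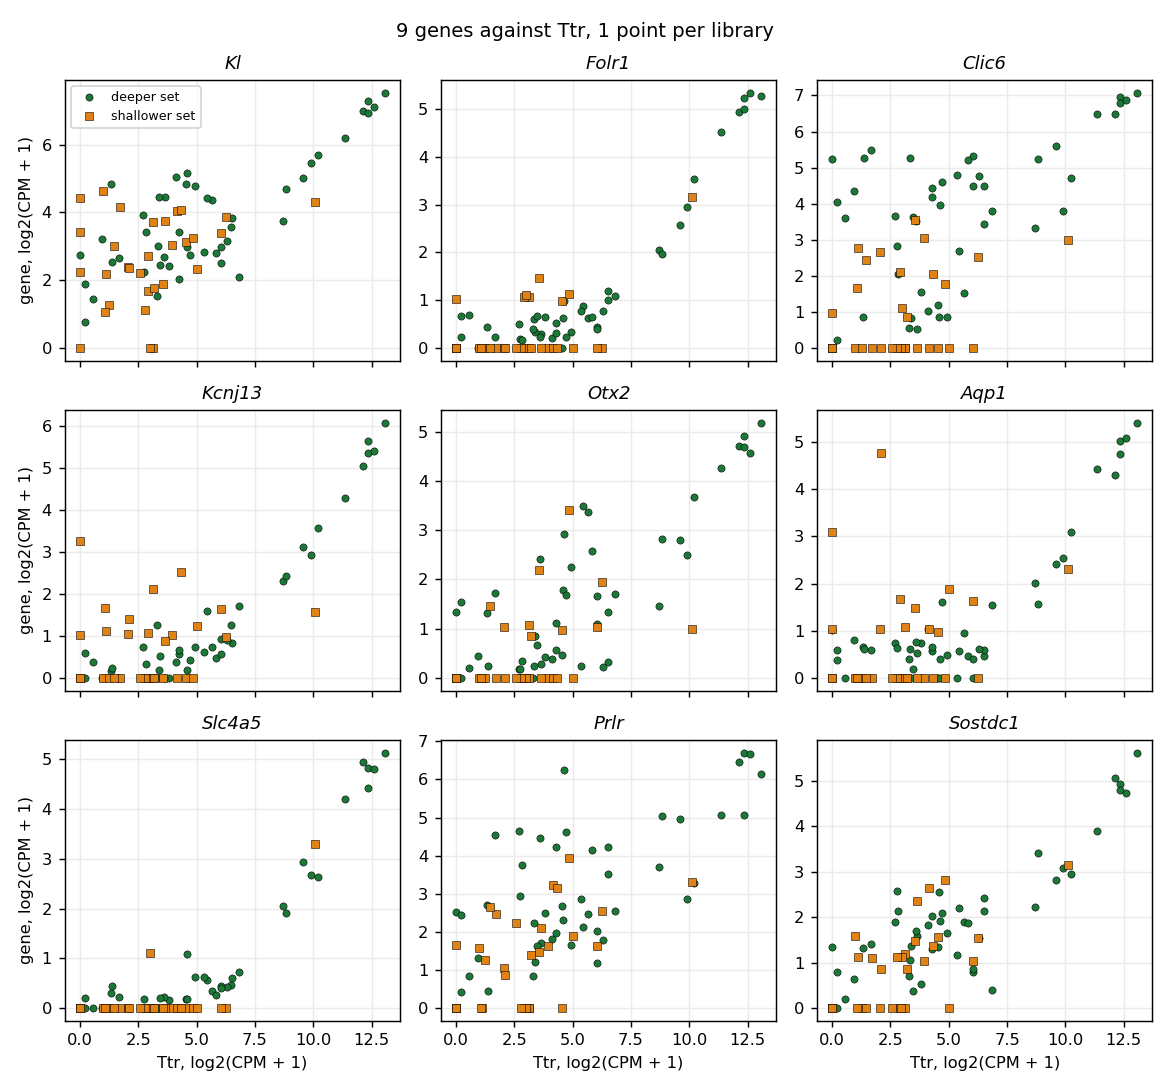
Each of the 9 other genes against Ttr, both as log2(CPM + 1), with 1 point per library; green circles are the deeper set and orange squares the shallower set. In the deeper set r runs from 0.71 for Prlr to 0.91 for Kcnj13, and at low Ttr the points of Kl, Clic6 and Prlr spread over a range of levels.

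Regions differed in how closely the genes followed Ttr. The median r of the genes with Ttr was 0.91 in dorsal striatum, 0.91 in dorsal hippocampus and 0.90 in amygdala, over 11 or 12 libraries each. It was 0.27 in the 12 ventral striatum libraries, none of which had Ttr above 77.3 CPM. In the shallower set the median r was 0.48 over 31 libraries, with Sostdc1 highest at 0.68 and Kcnj13 lowest at 0.14, and the 45 pairs had a median of 0.30. Without female KO mouse 4, whose cortex had 1092 CPM of Ttr, the median r of the shallower set was 0.13, and without the 2 libraries with Ttr farthest from the median it was 0.20. In the deeper set the same exclusion of 2 libraries gave 0.80. Without the libraries whose neuron markers go against the label, the median was 0.82 over 42 deeper and 0.54 over 27 shallower libraries, with Kcnj13 highest at 0.91 and Prlr lowest at 0.69 in the deeper set. By Spearman's rho the medians were 0.75 in the deeper and 0.28 in the shallower set.

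The genes outside the 10 that followed Ttr most closely over the 47 deeper libraries were F5, Tmem72, Ecrg4, Mfrp, Calml4, Kcne2, Wdr86, Cldn2, 2900040C04Rik and Prr32, with r from 0.91 for F5 to 0.86 for Prr32. Of these, 7 are on a list of 24 other choroid plexus genes. Cldn2 (a tight-junction claudin) reached 38.3 CPM with a median of 0.346 CPM over these 47 libraries, and Kcne2 (a potassium channel subunit) reached 40.8 CPM with a median of 0.238 CPM. On the list of 24, 21 genes had a mean of at least 1 CPM in the deeper set, their median r with Ttr was 0.82, and 20 were above 0.5. Enpp2 (autotaxin, which myelinating cells also make) had the highest mean on the list, 367 CPM, and ranged from 47.7 to 2417 CPM. Igfbp2 (a carrier of insulin-like growth factors) reached 159 CPM in the same library as the highest Ttr. Slc4a2 (an anion exchanger) peaked at 112 CPM in dorsal hippocampus of female WT mouse 23, and Car12 (a carbonic anhydrase) at 99.98 CPM in amygdala of male KO mouse 10, a library with Ttr at 12.9 CPM.

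Markers of neighbouring tissue moved less closely with Ttr. Of 8 ependymal genes, 7 had a mean of at least 1 CPM in the deeper set, with a median r of 0.64 and a range of 0.45 to 0.77. Their summed level in the deeper set was 9.07 to 167 CPM, with the highest value in dorsal striatum of male WT mouse 13. Median r was 0.31 for thalamic neuron markers, 0.23 for meningeal and vascular fibroblast markers, 0.21 for striatal, 0.18 for endothelial and 0.15 for hippocampal markers, and -0.25 for cortical neuron markers. The most abundant genes of these lists were Foxj1 and Tmem107 for ependyma, Rora and Calb2 for thalamic, Dcn and Col1a2 for fibroblast, Ppp1r1b and Pde10a for striatal, Flt1 and Slco1a4 for endothelial, Wfs1 and Zbtb20 for hippocampal and Mef2c and Lamp5 for cortical markers. The part of these lists in the plexus values was not tested.

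**Figure D4:**
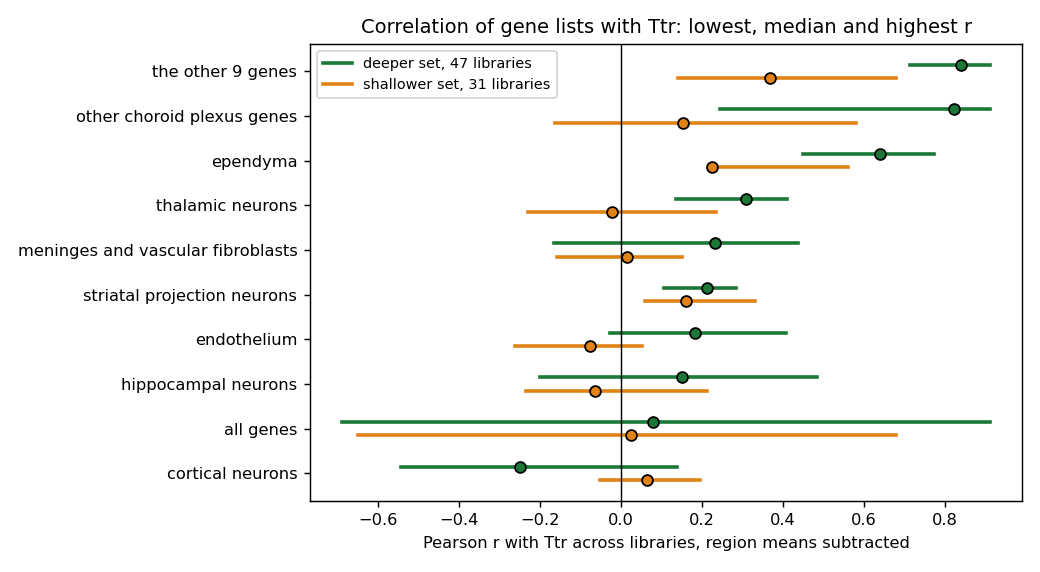
Pearson r with Ttr across libraries, region means subtracted, for the genes of each list with a mean of at least 1 CPM: the line runs from the lowest to the highest gene and the point is the median. In the deeper set (green, 47 libraries) the plexus lists have medians of 0.84 and 0.82 and ependyma 0.64, and in the shallower set (orange, 31 libraries) the medians lie between -0.08 and 0.37.

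Mean levels differed between regions for some of the genes. Regions were compared within each set with edgeR's quasi-likelihood test, with sex and genotype in the model and p-values adjusted over all genes tested. The model had no term for the mouse. Its p-values therefore measure the spread between libraries, with regions of the same mouse treated as separate. Between dorsal hippocampus and ventral striatum, 7 of the 10 genes were higher in dorsal hippocampus, where 53.2% of 15140 genes were called in either direction and 26.6% were higher. They were Ttr (log2 fold change 5.19 ± 1.40 SE, adjusted p = 0.00179), Kcnj13 (4.86 ± 1.34, 0.00170), Slc4a5 (4.18 ± 1.37, 0.00774), Folr1 (4.08 ± 1.22, 0.00380), Kl (2.79 ± 0.64, 0.000274), Aqp1 (2.64 ± 1.101, 0.0372) and Sostdc1 (1.94 ± 0.72, 0.0214). Between amygdala and ventral striatum, 6 were higher in amygdala, where 46.3% of genes were called and 23.5% were higher: Kcnj13, Slc4a5, Folr1, Ttr, Sostdc1 and Kl, with log2 fold changes of 4.55, 3.64, 3.503, 3.498, 2.11 and 1.84. Between ventral and dorsal striatum, 5 were lower in ventral striatum, where 13.9% of genes were called, 8.1% higher and 5.77% lower: Kcnj13 (-4.96 ± 1.30, adjusted p = 0.00677), Ttr (-4.25 ± 1.41, 0.0370), Slc4a5 (-4.23 ± 1.31, 0.0223), Folr1 (-4.14 ± 1.18, 0.0133) and Aqp1 (-3.15 ± 1.06, 0.0367). Among dorsal hippocampus, amygdala and dorsal striatum none of the 10 was called in any of the 3 pairs, where 38.6%, 54.2% and 54.8% of genes were called and 18.8%, 26.8% and 27.5% were higher in the first region of the pair. Otx2, Prlr and Clic6 were called in none of the 6 pairs.

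Apart from Kl in dorsal hippocampus against ventral striatum, these calls rested on few libraries. All 12 libraries of ventral striatum had Ttr of 77.3 CPM or less. The Ttr ranges of the other regions ran from below 10 CPM upward, so every pair overlapped for Ttr. Kl was at 19.5 to 126 CPM in dorsal hippocampus and 4.78 to 8.33 CPM in ventral striatum, without overlap. Its log2 fold change in that pair was 2.54 to 2.93 when each mouse was left out. With limma on log2(CPM + 1), which gives high libraries less weight, Ttr was called in no pair (adjusted p = 0.163, 0.0665 and 0.254 for the 3 pairs above). The limma test called 2 genes in each of dorsal hippocampus against ventral striatum (Kl higher, Clic6 lower) and amygdala against ventral striatum (Sostdc1 and Kcnj13 higher), and 0 in ventral against dorsal striatum. It also called Prlr and Clic6 lower in dorsal hippocampus than in amygdala (-1.72 and -1.96), Clic6 lower and Kl higher in dorsal hippocampus than in dorsal striatum (-2.10 and 1.72), and Prlr higher in amygdala than in dorsal striatum (1.53). Of all genes, limma called 54.6%, 45.8% and 15.3% in the 3 pairs with ventral striatum. In the other 3 pairs edgeR called 38.6%, 54.2% and 54.8% of all genes. The limma shares of all genes in those 3 pairs are not given, so its 2, 2 and 1 of the 10 genes have no background from the same test. The regions came from the same mice, and with the mouse as a block Ttr was called in none of the 3 pairs (adjusted p = 0.0892, 0.182 and 0.161). Under the block Aqp1 and Sostdc1 were no longer called in dorsal hippocampus against ventral striatum (0.120 and 0.0637), nor Aqp1 in ventral against dorsal striatum (0.0721), and Clic6 was lower in dorsal hippocampus than in ventral (-2.04, 0.0223) and dorsal striatum (-2.20, 0.0208). Without female KO mouse 5 the count for amygdala against ventral striatum was 1 instead of 6, and without female KO mouse 4 it was 2. For ventral against dorsal striatum it was 2 instead of 5 without female KO mouse 5, female KO mouse 6 or male WT mouse 13, and 3 without female KO mouse 4. Without the 9 libraries whose neuron markers go against the label, dorsal hippocampus against ventral striatum gave 3 genes higher (Ttr, Kcnj13 and Kl) and Clic6 lower, and the other pairs with ventral striatum gave 8 for amygdala and 7 for dorsal striatum. Prlr and Clic6 were then also lower in dorsal hippocampus than in amygdala (-2.36 and -2.29) and dorsal striatum (-1.81 and -2.96). For the fits without these 9 libraries or without a mouse, no share of all genes called per pair is given. Those counts therefore have no background beside them.

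In the shallower set Kl was higher in ventral hippocampus than in cortex (log2 fold change 1.86 ± 0.41 SE, adjusted p = 0.000472) and prefrontal cortex (1.61 ± 0.42, 0.00282) by edgeR, where 29% and 30.2% of 11195 genes were called and 14.1% and 15.3% were higher. Medians were 12.9 CPM in ventral hippocampus, 1.40 in cortex and 3.93 in prefrontal cortex. Leaving out each mouse in turn gave 1.66 to 2.70 for the first pair and 1.47 to 1.83 for the second. Ttr and Kl were the 2 of the 10 genes that passed the filter on low counts in this set, and Ttr was called in none of its 3 pairs. Of the 24 other plexus genes, 12 were higher and 0 lower in dorsal hippocampus than in ventral striatum, 16 were higher and 0 lower in amygdala than in ventral striatum, and 13 were lower and 0 higher in ventral than in dorsal striatum, each of 22 tested. The medians of these 22 log2 fold changes were 2.54, 2.39 and -2.48, and those of all genes were -0.0081, -0.0029 and -0.0018. Other lists moved in these pairs too. Of 7 ependymal genes tested, 6 were lower in ventral than in dorsal striatum, 2 were higher in amygdala than in ventral striatum and 0 were called in dorsal hippocampus against ventral striatum, where 2 had an unadjusted p under 0.05. Of 8 meningeal and vascular fibroblast genes, 8 were higher in dorsal hippocampus and 3 in amygdala than in ventral striatum, and 0 were called in ventral against dorsal striatum, where 1 had an unadjusted p under 0.05. The part of these lists in the plexus values was not tested.

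KO and WT libraries were compared within each sex and region to see whether plexus RNA was balanced between genotypes. None of the 10 genes was called in any of 13 comparisons (56 tests of the genes that passed the filter, edgeR), where 0.0368% of all gene tests were called, and 9 of the 56 had an unadjusted p under 0.05, beside 7375 of 162909 over all genes. In males the share of all genes called was 0.00721% in dorsal hippocampus, 0.00706% in amygdala, 0.00996% in ventral hippocampus, 0.0103% in cortex and 0% in both striatal regions. In females it was 0.00707% in dorsal hippocampus, 0.00993% in ventral hippocampus, 0.0398% in cortex, 0.452% in prefrontal cortex and 0% in amygdala and both striatal regions. DESeq2's Wald test and limma on log2(CPM + 1) also called 0, where a test without an adjusted p from DESeq2 counts as not called. Without the filter on low counts edgeR called 4: Ttr in male ventral hippocampus (2.79) and female cortex (6.45), and Aqp1 (-3.84) and Clic6 (5.58) in female prefrontal cortex, the region that holds the library of doubtful sex. Clic6 there was at 5.28, 10.65 and 0.814 CPM in KO mice 4, 5 and 6 and had no count in WT. The library of KO mouse 5 is one of the 9, with striatal markers at 1799 and cortical markers at 1035 CPM. In this comparison 2 of 8 striatal markers were called higher in KO by edgeR and 7 had an unadjusted p under 0.05, with a median log2 fold change of 2.37, and their part in the Clic6 value was not tested. Of the 10 libraries with Ttr of at least 500 CPM, 6 were among the 40 KO and 4 among the 38 WT libraries.

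Female amygdala had the highest values. Ttr was at 8637, 5234 and 90.7 CPM in KO mice 5, 4 and 6, and at 452 and 412 CPM in WT mice 24 and 23. The ranges overlapped, since KO mouse 6 lay below both WT mice. The log2 fold change was 3.39 ± 1.63 SE (edgeR, adjusted p = 0.982), and without KO mouse 6 it was 3.96 (adjusted p = 0.0961). The means of all 10 genes were higher in KO, and the genes share these libraries, so they are not 10 separate observations. Neuron markers differed in the same libraries: cortical markers summed to 1407 CPM in WT mouse 23 and to 347 to 562 CPM in the other 4. Striatal markers summed to 1483 CPM in KO mouse 6, the library with the least Ttr, and to 306 to 678 CPM in the other 4. The median log2 fold change was -1.30 for 8 cortical markers, 3 of them with an unadjusted p under 0.05, and 0.71 for 8 hippocampal markers, 2 of them with such a p (edgeR). Their part in the plexus values was not tested.

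Female dorsal striatum had a similar pattern. Ttr was at 6231, 5143 and 113 CPM in KO mice 6, 5 and 4, and at 765, 64.8 and 0.171 CPM in WT mice 24, 11 and 23. Again KO mouse 4 lay below the highest WT library. The Ttr log2 fold change was 3.82 ± 2.06 SE (edgeR, adjusted p = 0.919), and means of all 10 genes were higher in KO. Aqp1 (3.68 ± 1.18), Folr1 (3.72 ± 1.35), Kcnj13 (3.27 ± 1.23) and Otx2 (2.93 ± 1.19) had unadjusted p of 0.0166, 0.0281, 0.0322 and 0.0435, all with an adjusted p of 0.919. The WT library of mouse 23, with cortical markers above striatal ones, was the lowest for Ttr, and without it the Ttr log2 fold change was 3.24. Without WT mouse 24 it was 6.86, and leaving out each of the 6 mice gave 3.24 to 6.86.

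Female cortex rested on 1 library. Ttr was at 1092, 31.02 and 6.60 CPM in KO mice 4, 5 and 6, and at 7.75 and 1.17 CPM in WT mice 11 and 24. The KO to WT log2 fold change was 6.43 ± 1.53 SE (edgeR, unadjusted p = 0.000299, adjusted p = 0.154). Without KO mouse 6 the adjusted p was 0.00355, and without KO mouse 4 or KO mouse 5 Ttr did not pass the filter and gave no value. None of the other 9 genes passed the filter in the cortex of either sex.

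The opposite direction was seen in female dorsal hippocampus and male dorsal striatum. In female dorsal hippocampus Ttr was at 49.5, 42.5 and 11.4 CPM in KO and at 4518, 22.3 and 1.51 CPM in WT, with a log2 fold change of -5.40 ± 2.35 SE (edgeR, adjusted p = 1.00). The WT value of 4518 CPM is the library of mouse 23 with thalamic markers above hippocampal ones, and without it the log2 fold change was 1.54 (adjusted p = 0.324). Means of all 10 genes were lower in KO with that library and 8 of 10 were higher in KO without it, all but Kl and Prlr. Without it, mean Ttr was 34.5 CPM in KO and 11.9 in WT, and mean Otx2 was 6.55 and 0.947 CPM. Kl was at 19.5 to 21.1 CPM in KO against 27.3 to 126 CPM in WT, without overlap, and its log2 fold change was -1.56 with the library and -0.49 without it (edgeR, adjusted p = 1.00 and 0.0953). In male dorsal striatum Ttr was at 18.2, 9.94 and 8.76 CPM in KO and at 2618, 0.467 and 0.149 CPM in WT, with a log2 fold change of -6.05 ± 2.76 SE (edgeR, adjusted p = 1.00). Here the WT library of mouse 13 held the highest value and the other 2 WT libraries the lowest. Without mouse 13 the log2 fold change turned to 5.26 (adjusted p = 1.00).

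In the remaining comparisons Ttr was below 100 CPM in every library, except in male dorsal hippocampus, where 1 library of each genotype was high. Male dorsal hippocampus had Ttr at 959.8, 22.8 and 16.2 CPM in KO and 1192, 29.5 and 9.41 CPM in WT, and the log2 fold change was -0.20 ± 1.60 SE (edgeR, adjusted p = 0.999). Male amygdala was at 5.56 to 12.9 CPM in KO and 6.01 to 89.2 CPM in WT. Female ventral striatum was at 1.59 to 77.3 and 25.1 to 65.5 CPM, and male ventral striatum at 0.925 to 11.1 and 0 to 56.4 CPM. The male ventral striatum libraries of KO mouse 10 and WT mouse 13 are among the 9 whose neuron markers go against the label. Without them Ttr there was at 0.925 to 9.07 CPM in KO and 0 to 56.4 CPM in WT. Female ventral hippocampus was at 2.27 to 22.3 CPM in KO and 0 to 16.6 CPM in WT, and male cortex at 1.40 to 6.97 and 0 to 5.92 CPM. Female prefrontal cortex was at 3.17 to 10.7 and 3.27 to 4.89 CPM. In male ventral hippocampus Ttr was at 75.8, 27.6 and 11.6 CPM in KO and 19.1, 0.993 and 0 CPM in WT. This gave a log2 fold change of 2.76 ± 0.87 SE with an unadjusted p of 0.00649 and an adjusted p of 0.492 (edgeR), while Kl had lower values in KO (-0.85 ± 0.34, adjusted p = 0.584), with ranges that did not overlap. Leaving out each mouse moved the Ttr value between 1.70 (without KO mouse 1) and 5.79 (without WT mouse 3). Hippocampal neuron markers had a median log2 fold change of -1.13 there, and 4 of 7 had an unadjusted p under 0.05. The lowest Kl library, KO mouse 10 at 8.403 CPM, had thalamic markers at 546 and hippocampal markers at 245 CPM. Without it the log2 fold change was -0.70 for Kl and 2.93 for Ttr (edgeR, adjusted p = 0.902 and 0.528), and the part of these markers was not tested. Male prefrontal cortex, with 1 KO library, was not tested; Ttr there was 1.76 CPM in KO and 0 and 64.6 CPM in WT.

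**Figure D5:**
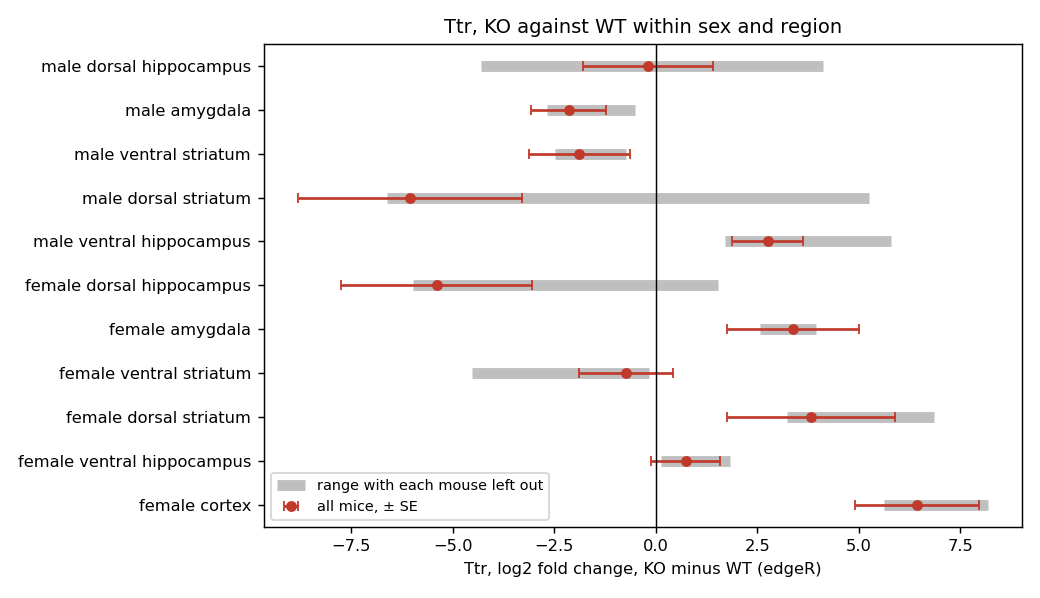
Ttr log2 fold change of KO over WT in the 11 comparisons within sex and region where Ttr passed the filter; red points are the edgeR estimate with its standard error and grey bars the range when each mouse is left out in turn. Bars cross 0 in male dorsal hippocampus, male dorsal striatum and female dorsal hippocampus, and the estimates run from -6.05 to 6.43. The female cortex bar spans only 3 fits, from 5.62 to 8.18. Ttr did not pass the filter there without KO mouse 4, which held 1092 CPM, or without KO mouse 5. That bar therefore cannot show how far the estimate depends on either mouse.

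Counted over the 13 comparisons, 3 of 56 tests of the 10 genes had KO and WT ranges that did not overlap (Kl in male ventral hippocampus, Kl and Prlr in female dorsal hippocampus), against 11.7% of all gene tests. Over both sexes, none of the 10 genes was called in any of 7 regions (43 tests, edgeR), where 0.012% of gene tests were called and 3 of the 43 had an unadjusted p under 0.05, beside 4431 of 91569 over all genes. By region the share of all genes called was 0.0069% in dorsal hippocampus, 0.00657% in amygdala, 0.00708% in ventral and 0.00689% in dorsal striatum, 0.00929% in ventral hippocampus, 0.00947% in cortex and 0.042% in prefrontal cortex. In prefrontal cortex Aqp1 was called without the library of doubtful sex (log2 fold change -5.08, edgeR, adjusted p = 0.0362), where 1 WT library of mouse 11 held 26.1 CPM. The interaction of sex and genotype was tested in 6 regions and called none of the 10 genes in 39 tests and no gene at all, with an unadjusted p under 0.05 in 13 of the 39 and in 3385 of 79675 gene tests. In dorsal striatum 9 of the 10 genes had such a p, beside 692 of 14523 over all genes. The genes share these libraries, so they are not 9 separate observations. Ttr was at -9.87 ± 3.85 SE (males minus females on the log2 scale, edgeR, adjusted p = 0.769) and Folr1 at -7.77 ± 2.34 (0.769). The dorsal striatum libraries of female WT mouse 23 and male KO mouse 10, whose neuron markers go against the label, enter this test, and no value without them is given. In amygdala Ttr had an interaction of -5.53 ± 1.99 SE (edgeR, adjusted p = 0.880).

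The other plexus genes were uncalled as well. Of the 24, 124 tests within sex and region gave 0 higher and 0 lower, with an unadjusted p under 0.05 in 20 (edgeR), beside 7375 of 162909 over all genes. In female dorsal striatum 19 of them were tested, 11 had an unadjusted p under 0.05, and their median log2 fold change was 2.56, beside 2.94 for the 10 genes and -0.0041 for all genes. In female amygdala all 24 were tested, with a median of 2.51 beside 2.69 for the 10 genes and 0.0019 for all genes. Ependymal genes in the same comparisons had medians of 1.04 and 1.33, with 0 of 7 under an unadjusted p of 0.05 in each.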

How the data were processed

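Gene counts came from poly(A) RNA of 78 mouse brain libraries. The deposited values are raw counts per gene, which the authors made with STAR 2.5.2a, SAMtools 1.1 and HTSeq 0.6.1 on GRCm38 (mm10), per the submitters' processing notes. Libraries were grouped by the labelled region, sex and genotype, and 0 columns of per-sample values were left out. CPM is a count divided by its library's total. The main tests were edgeR 4.0.16 quasi-likelihood tests (TMM scaling, filterByExpr with a minimum count of 10, Benjamini-Hochberg adjustment over all genes tested, threshold 0.05), tested on simulated data: for male dorsal hippocampus 72 of 97 genes with a simulated log2 change of 1 and 95 of 99 with a change of 2 were called, and for female amygdala 23 of 96 and 74 of 94. Among genes left unchanged there, 6 were also called for male dorsal hippocampus and 14 for female amygdala. Recovery of the 10 plexus genes, which rise together in few libraries, was not tested. Alternatives used DESeq2 1.42.0 and limma 3.58.1 (R 4.3.3) and left out each mouse. Mouse numbers link regions of the same animal, per the labels; KO and WT share no numbers. Correlations used log2(CPM + 1) with region means subtracted.

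The named genes are the 10 chosen genes in every comparison, Acss2, Xist and Ddx3y as checks of the labels, the 10 other genes with the highest r with Ttr in the deeper set, the 4 other plexus genes with the highest mean and the 2 highest of each list of other cell types. The genes and lists were chosen with earlier results of these data known. Intervals and limits from 3 counts cover counting error only.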

Additional observations from a re-analysis of the deposited data

How the results depend on the processing

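The 10 genes were called in none of the KO and WT comparisons with edgeR, DESeq2 or limma. A test to which DESeq2 gave no adjusted p counts as not called. Without the filter on low counts 4 were called within sex and region, 4 over both sexes and 1 in the interaction. Between regions 4, 3 and 3 were called for ventral hippocampus against cortex, ventral hippocampus against prefrontal cortex and cortex against prefrontal cortex. With the filter, 29%, 30.2% and 38.2% of all genes were called in these 3 pairs (edgeR), and no share without the filter is given for them. Over all genes, calls within sex and region went from 60 to 861 without the filter, 140 with DESeq2 and 183 without the 9 libraries whose markers go against the label. Over both sexes they went from 11 to 438, 25 and 6, and without the library of doubtful sex to 122, with 1 of the 10 genes called. Leaving out each mouse gave 0 to 1 of the 10 genes and 9 to 493 genes within sex and region, and 0 to 1 and 6 to 130 over both sexes. The causes of these shifts were not tested.

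Between regions, 20 tests of the 10 genes were called, 11 with limma and 12 to 24 when each mouse was left out. By pair, limma called 2 for dorsal hippocampus against amygdala, 2 against ventral striatum and 2 against dorsal striatum, 2 for amygdala against ventral striatum, 1 for amygdala against dorsal striatum and 0 for ventral against dorsal striatum. Without the 9 libraries the first 3 of these counts were 2, 4 and 2, and DESeq2 gave 1 for dorsal hippocampus against dorsal striatum. Leaving out each mouse gave 0 to 2, 5 to 7 and 0 to 2 for these 3 pairs, 1 to 7 for amygdala against ventral striatum, 2 to 6 for ventral against dorsal striatum and 0 to 1 for cortex against prefrontal cortex. With the mouse as a block, since regions of a mouse share an animal, 16 tests were called in all, with 1 for dorsal hippocampus against dorsal striatum and 3 for ventral against dorsal striatum. Over all genes 50187 tests were called with the block and 50413 without it. By pair, no share of all genes is given for the fits without the 9 libraries, without a mouse, with DESeq2 or with the block. No paired analysis was possible for KO against WT because the genotypes share no mouse numbers.

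The direction of the Ttr log2 fold change turned under some settings. With limma it was 0.018 in male dorsal hippocampus, 2.47 in dorsal striatum over both sexes, -0.82 and -0.071 for dorsal hippocampus against amygdala and dorsal striatum, 0.75 for amygdala against dorsal striatum and 0.16 for ventral hippocampus against cortex. Without the 9 libraries it was 1.54 in female dorsal hippocampus, 0.67 in dorsal hippocampus over both sexes and -0.40 for dorsal hippocampus against dorsal striatum. Leaving out a mouse gave -4.29 to 4.13 in male dorsal hippocampus (0.36, 0.37 and 4.13 without KO mouse 2, KO mouse 10 and WT mouse 3), -6.63 to 5.26 in male dorsal striatum and -5.97 to 1.54 in female dorsal hippocampus. Over both sexes it gave -4.83 to 0.67 in dorsal hippocampus, -1.40 to 4.55 in dorsal striatum (0.41 without female WT mouse 24) and -2.11 to 2.44 in prefrontal cortex. Between regions it gave -0.39 to 2.74 for dorsal hippocampus against dorsal striatum (-0.18 without female WT mouse 23), -1.31 to 0.41 for amygdala against dorsal striatum, -2.50 to 1.42 for ventral hippocampus against cortex and -1.05 to 4.54 for cortex against prefrontal cortex. Of the other single-gene values, 635 kept their direction and side of the threshold, 60 fell short of it (15 with limma and 6 with the block) and 11 passed it.

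The median r with Ttr was 0.75 by Spearman's rho in the deeper set and 0.28 in the shallower set. In the shallower set it was 0.20 without the 2 libraries with Ttr farthest from the median and 0.28 without cortex, and leaving out each mouse gave 0.13 to 0.50 there and 0.81 to 0.86 in the deeper set. The limma test and the exclusion of the 9 libraries were chosen after seeing the data. Prefrontal cortex over both sexes gave no value without male KO mouse 1 or without the 9 libraries. In the shallower set 3 counts are 2.44 to 4.76 CPM, so values above 0 and below that level there rest on 1 or 2 counts.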
